A study of Rattus norvegicus with 6 samples.

Results

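The autophagy machinery and its receptors were followed here as a set of 38 rat genes chosen by name: the kinase complex that starts autophagy, the lipid kinase complex and membrane supply of nucleation, the conjugation system, 4 cargo receptors and the 3 MiT transcription factors. These genes were chosen with earlier results of these data known. The deposited table of 19289 features held 37 of them, and 36 had a mean of at least 1 FPKM (fragments scaled by transcript length and library size) over the 6 libraries and were tested. Mitf was measured but fell below that level, and Atg4a was not analysed here. The cells were INS-1E, a clonal insulin-secreting line from a rat insulinoma. The tested group was kept with uric acid (UA) for 24 hours and comprised 3 libraries, and 3 libraries came from untreated cells. The labels give neither the concentration of uric acid nor a vehicle, and they give no culture time for the untreated cells. A difference in culture time, if there was one, cannot be told apart from uric acid. In addition, no label ties a replicate to a culture of its own. The p-values thus cover the spread between 3 libraries a group, which may be technical.

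Autophagy encloses cytoplasm in a double membrane and delivers it to lysosomes. The ULK1 kinase complex receives signals from mTORC1 and AMPK, the VPS34 lipid kinase complex marks the growing membrane, and a conjugation system attaches LC3 and GABARAP proteins to it, where cargo receptors bind them. TFEB, TFE3 and MITF switch on many genes of autophagy and lysosomes when nutrients or lysosomes fail. In pancreatic beta cells autophagy removes damaged mitochondria and surplus insulin granules, and mice that lack Atg7 in these cells lose beta-cell mass and insulin secretion.

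Total estimated counts per library were 41191819 to 48875962 with uric acid and 47858248 to 59092982 in untreated cells. The mitochondrial share of counts was 8.49, 9.10 and 8.28% in uric acid libraries 1, 2 and 3, above the 7.89, 7.87 and 8.24% in untreated libraries 1, 2 and 3, and its part in the results was not tested. Tested members held from 107 counts in 1 library (Atg10) to 43133 (Sqstm1). Beta-cell markers were expressed in every library, among them Ins1 at 43003 to 55064 FPKM with uric acid and 44093 to 54102 FPKM untreated, and the transcription factor gene Nkx6-1 at 38.2 to 42.3 FPKM with uric acid and 42.9 to 48.3 FPKM untreated. At an adjusted p under 0.05, 1 of the 10 beta-cell markers fell (10%, against 2.99% of all tested features) and none rose. The insulin gene activator Mafa fell to 282 ± 29.5 FPKM with uric acid, against 389 ± 16.8 FPKM untreated (log2 fold change -0.46, edgeR adjusted p = 0.0129), a call lost without uric acid library 1 (0.071) and untreated library 1 (0.0564). Pdx1 (-0.26, adjusted p = 0.0699) and Nkx6-1 (-0.16, adjusted p = 0.18) missed the threshold with all uric acid libraries below all untreated ones. Neurod1 (0.19, adjusted p = 0.107) and Slc2a2 (0.23, adjusted p = 0.0906) missed it with all uric acid libraries above. The part of these differences in the values of autophagy genes was not tested. Of 12 markers of other cells 7 were found, and apart from the alpha-cell hormone Gcg (7.47 to 10.6 FPKM with uric acid, 5.46 to 10.2 FPKM untreated) none had a mean of 1 FPKM. Because whole cultures were measured, fewer cells that express a gene and less RNA per cell cannot be told apart.

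Of the 36 tested members 10 rose with uric acid, none fell and 26 missed the threshold. Ulk1, Atg14, Uvrag, Wipi1, Atg2a, Atg2b, Atg12, Gabarapl1, Nbr1 and Tfe3 were higher at an adjusted p under 0.05 (edgeR quasi-likelihood test, Benjamini-Hochberg over all 12460 tested features). These are 10 of 36 tested members, or 27.8%, against 4.99% of all tested features called higher, 2.99% called lower and 7.98% called in either direction. Because members were chosen with earlier results of these data known, such shares describe the set and do not test it. The rises were moderate, from 1.23-fold for Atg12 to 1.68-fold for Gabarapl1. The median log2 fold change was 0.17 over the 36 members and 0.0013 over all tested features, and it was above 0 for 29 members, against 50.2% of all tested features. All 3 uric acid libraries lay above all 3 untreated ones for 15 members, against 16.8% of all tested features, and below them for 2 members (Atg4d and Tfeb), against 14.2%. The number called depended on single libraries: 4, 9 and 10 members passed when uric acid library 1, 2 or 3 was left out, and 5, 4 and 5 when untreated library 1, 2 or 3 was. The count over all tested features changed as well. It was 622 higher with all libraries, 224, 490 and 707 without uric acid library 1, 2 or 3, and 254, 165 and 316 without untreated library 1, 2 or 3. Ulk1, Atg2b and Gabarapl1 passed with any 1 library left out.

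**Figure D1:**
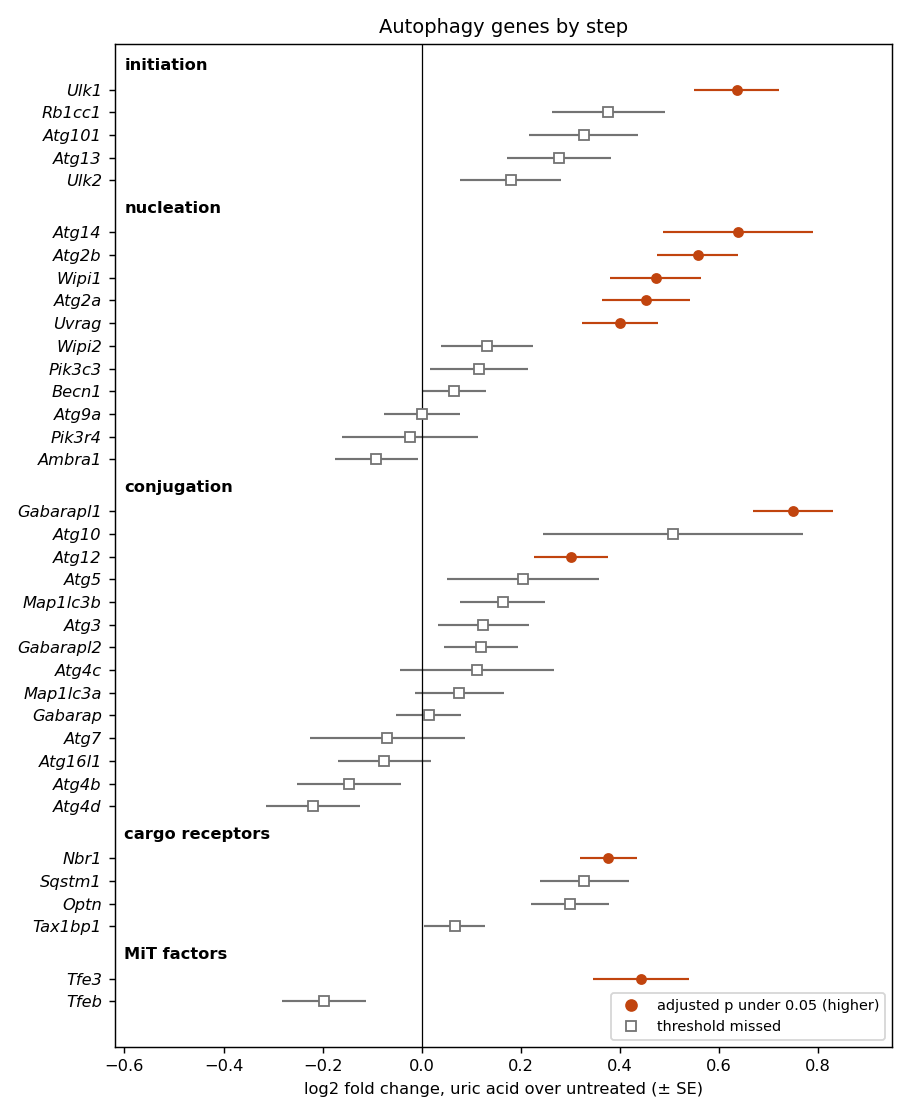
Log2 fold change, uric acid over untreated, of the 36 tested autophagy genes (horizontal axis, bars ± 1 SE from edgeR), grouped by step. Filled circles passed an adjusted p of 0.05 and open squares missed it. The 10 filled circles lie between 0.30 (Atg12) and 0.75 (Gabarapl1), and the lowest value is -0.22 (Atg4d).

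The sequence upstream of a gene's start is shown for Gabarapl1 and Ulk1, picked as the pair of called members with the smallest adjusted p. Both are 250 bases ending just before the start site, 5′ to 3′ on the gene's strand, from RefSeq's promoters on the build GRCr8. Gabarapl1 is read at chr4:164666082-164666331 and Ulk1 at chr12:51511242-51511491, both on the plus strand. Capitals mark CpG dinucleotides, of which there are 16 in the Gabarapl1 stretch and 30 in the Ulk1 stretch.
Gabarapl1: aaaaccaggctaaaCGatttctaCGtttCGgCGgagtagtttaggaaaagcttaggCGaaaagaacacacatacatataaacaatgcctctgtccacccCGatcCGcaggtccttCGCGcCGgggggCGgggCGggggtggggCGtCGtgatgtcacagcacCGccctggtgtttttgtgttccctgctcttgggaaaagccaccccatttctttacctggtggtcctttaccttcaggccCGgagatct
Ulk1: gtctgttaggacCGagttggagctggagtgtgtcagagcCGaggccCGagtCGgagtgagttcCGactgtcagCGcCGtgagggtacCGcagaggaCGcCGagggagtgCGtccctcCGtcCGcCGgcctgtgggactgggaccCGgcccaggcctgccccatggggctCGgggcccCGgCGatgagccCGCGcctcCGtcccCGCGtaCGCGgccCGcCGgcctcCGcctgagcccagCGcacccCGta
RefSeq promoters of 300 bases (250 before and 50 after the start) were matched for 33 of the 37 members found. The median number of CpG was 21 in the promoters of the 10 called members, 24 in those of the 23 other members and 7 over all 27457 promoters. Both member medians thus lay above that of all promoters, which were not limited to genes expressed in these cells. Called members ran from 14 (Atg14 and Tfe3) to 41 (Ulk1), and other members from 2 (Atg7) to 47 (Atg4b).

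Motifs were searched on both strands of these 300 bases. The C/EBP-ATF element TGATGNAA, bound by ATF4 with its partners, was in none of the 33 member promoters and in 3.82% of all promoters. The forkhead element GTAAACA was likewise in none of the 33, against 3.76% of all promoters. The CLEAR element TCACGTGA, the site of the MiT factors, was in 1 member promoter, that of Atg3, against 0.867% of all. Its core CACGTG, which is part of the longer motif and was added after the first motifs had been read, was in the promoters of Atg3, Atg5 and Atg14, against 6.65% of all. Atg14 is the 1 called member among them. The matched windows of Atg3 (chr11:69159280-69159307, minus strand) and Atg14 (chr15:23306794-23306819, minus strand) are shown because they are a CLEAR match in a gene that missed the threshold and a core match in one that passed, with the matched letters in capitals.
Atg3: gagattcgagTCACGTGAggcctaggag
Atg14: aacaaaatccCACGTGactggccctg
These matches describe the letters in the window. They do not show binding.

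Among the 5 genes of initiation 1 rose (20%, against 4.99% of all tested features) and none fell (against 2.99%). Ulk1, the kinase that starts autophagy, had 19.3, 18.5 and 20.8 FPKM in uric acid libraries 1, 2 and 3, against 11.4, 12.7 and 13.6 FPKM in untreated libraries 1, 2 and 3. The lowest uric acid library thus stood well above the highest untreated one. The log2 fold change was 0.64 ± 0.09 (SE), a 1.55-fold rise, at an adjusted p of 0.00389. Ulk1 is ENSRNOG00000037505, on chromosome 12 from 51908448 to 51934702 in the deposited table, for which the sources used here give no genome build.

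The partners of the kinase missed the threshold in edgeR, each with a log2 fold change above 0. Rb1cc1, the large scaffold FIP200, averaged 7 ± 0.851 FPKM with uric acid and 5.39 ± 0.712 FPKM untreated (SD, n = 3 each; log2 fold change 0.38, adjusted p = 0.0771). It passed with DESeq2 (0.0277) and missed in edgeR with any 1 library left out (0.0564 to 0.236). Atg101, which stabilizes ATG13, averaged 37.3 ± 4.54 FPKM with uric acid and 29.7 ± 2.78 FPKM untreated (0.33, adjusted p = 0.106). For both genes the groups did not overlap. Atg13, the adaptor that mTORC1 phosphorylates, averaged 28.2 ± 3.62 FPKM with uric acid and 23.3 ± 1.65 FPKM untreated (0.28, adjusted p = 0.142). It passed without uric acid library 2 (0.0349), which at 24.1 FPKM lay inside the untreated range. With any other library left out Atg13 stood at 0.181 to 0.387. Ulk2, the second kinase, had the smallest value of the step (0.18, adjusted p = 0.306).

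The step with the most calls was nucleation and membrane supply, where 5 of 11 genes rose and none fell. That is 45.5% higher, against 4.99% of all tested features higher and 2.99% lower. The 5 were Atg14, Uvrag, Wipi1, Atg2a and Atg2b, while the kinase gene Pik3c3 and 5 others missed the threshold. The number called was 1, 4 and 4 without uric acid library 1, 2 or 3, and 2, 1 and 2 without untreated library 1, 2 or 3. Over all tested features the number higher was 622 with all libraries and 165 to 707 with 1 left out. Atg14, the subunit that targets VPS34 to autophagosome sites, had 2.52, 3.2 and 3.17 FPKM with uric acid, against 1.79, 1.8 and 2.11 FPKM untreated. Uvrag, the alternative subunit of the endosomal complex, had 12.5, 12.8 and 11.7 FPKM with uric acid, against 9.73, 9.15 and 9.15 FPKM untreated. All uric acid libraries were above all untreated ones in both genes. The log2 fold changes were 0.64 ± 0.15 for Atg14 (adjusted p = 0.0359) and 0.40 ± 0.08 for Uvrag (adjusted p = 0.0165). Atg14 was the second lowest of the tested members in level, and its call was lost without any single library: the adjusted p stood at 0.0521, 0.0722 and 0.0637 with uric acid library 1, 2 or 3 left out, and at 0.12, 0.156 and 0.0543 with untreated library 1, 2 or 3 left out. The Uvrag call was lost without uric acid library 1 (0.07) and untreated libraries 2 (0.102) and 3 (0.0558).

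Atg2a and Atg2b encode the pair of tube-shaped proteins that carry lipid from the endoplasmic reticulum into the growing membrane, and both rose. Atg2b had 6.42, 6.06 and 7.02 FPKM with uric acid, against 4.51, 4.63 and 4.11 FPKM untreated. Atg2a had 6.45, 6.43 and 7.5 FPKM with uric acid, against 5.22, 4.77 and 4.89 FPKM untreated. The lowest uric acid value exceeded the highest untreated value in each gene. The log2 fold changes were 0.56 ± 0.08 for Atg2b (adjusted p = 0.00558) and 0.45 ± 0.09 for Atg2a (adjusted p = 0.0182). Atg2a lost its call without uric acid library 1 (0.0537) and untreated libraries 1 (0.0522), 2 (0.106) and 3 (0.0595). Atg9a, the scramblase that works with ATG2, stood at 11.6 ± 0.461 FPKM with uric acid and 11.6 ± 0.807 FPKM untreated (log2 fold change 0.0008 ± 0.08, with a sign that changed under other scalings, adjusted p = 0.996).

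Wipi1, a reader of the lipid that VPS34 makes, had 13.6, 12.9 and 14.1 FPKM in uric acid libraries, against 9.89, 9.2 and 10.1 FPKM in untreated libraries. The groups did not overlap, and the log2 fold change was 0.47 ± 0.09 (adjusted p = 0.0176). The call was lost without uric acid library 1 (0.0731) and untreated libraries 1 (0.0614) and 2 (0.103). In the deposited positions Wipi1 overlaps Arsg, a sulfatase gene on the other strand, over 3585 bases. Arsg itself rose, with means of 8.84 FPKM with uric acid and 4.56 FPKM untreated (log2 fold change 0.95, adjusted p = 0.000962). No source says whether counting used strand. Reads of Wipi1 and Arsg were not separated here, and the part of Arsg in the Wipi1 value was not tested. Wipi2, which recruits ATG16L1, had a log2 fold change of 0.13 (adjusted p = 0.41).

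The catalytic core of the lipid kinase complex gave values near 0. Pik3c3, the VPS34 kinase itself, averaged 8.69 ± 0.813 FPKM with uric acid and 8.01 ± 0.457 FPKM untreated (0.12, adjusted p = 0.499). Becn1, the scaffold beclin 1, averaged 25.4 ± 0.933 FPKM with uric acid and 24.2 ± 0.584 FPKM untreated (0.07, adjusted p = 0.551). Pik3r4, the regulatory subunit VPS15, had a log2 fold change of -0.02 and Ambra1, which links beclin 1 to ULK1, one of -0.09. These misses do not show that the 4 genes were the same in both groups.

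**Figure D2:**
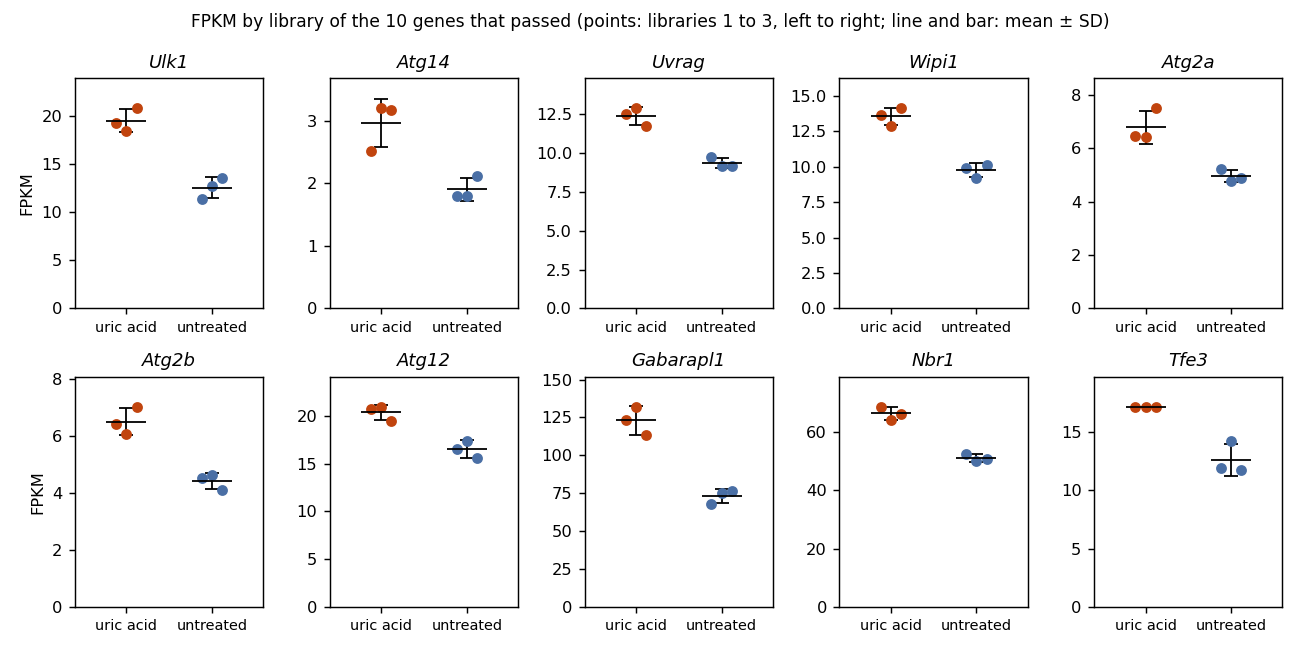
FPKM (vertical axes, from 0) in each library of the 10 autophagy genes called higher, uric acid left and untreated right in each panel; points are libraries 1 to 3 from left to right, lines and bars the mean ± SD. In every panel the 3 uric acid points lie above the 3 untreated points, for Gabarapl1 at 113 to 132 against 68 to 76.2 FPKM.

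In the conjugation system 2 of 14 tested genes rose (14.3%, against 4.99% of all tested features) and none fell (against 2.99%). Gabarapl1, a GABARAP protein that is attached to the autophagosome membrane, showed the largest change of all 36 members. It had 124, 132 and 113 FPKM in uric acid libraries, against 68, 75.1 and 76.2 FPKM in untreated libraries. That is a log2 fold change of 0.75 ± 0.08 at an adjusted p of 0.00133. It passed with any 1 library left out, at 0.0134 in the least favourable case. Gabarapl1 is ENSRNOG00000053362, on chromosome 4 from 163293724 to 163302858. Atg12, the ubiquitin-like protein joined to ATG5, had 20.7, 21 and 19.5 FPKM with uric acid, against 16.6, 17.4 and 15.6 FPKM untreated. Its groups did not overlap (log2 fold change 0.30 ± 0.07, adjusted p = 0.0411). The Atg12 call held with 1 library left out in 1 case, without uric acid library 3 (0.0373). It was lost without uric acid libraries 1 (0.136) and 2 (0.0772), and at 0.116 without each of the untreated libraries.

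Enzymes of conjugation did not pass. Atg7, which activates both ubiquitin-like systems, averaged 4.46 ± 0.775 FPKM with uric acid and 4.67 ± 0.651 FPKM untreated (log2 fold change -0.07, adjusted p = 0.818). Atg3, which loads LC3 onto lipid, had a value of 0.12 (adjusted p = 0.431), Atg5 0.21 (0.436) and Atg16l1, which places the conjugation at the membrane, -0.08 (0.648). Atg10, which joins ATG12 to ATG5, was the tested member with the lowest level, at 2.12 ± 0.475 FPKM with uric acid and 1.49 ± 0.403 FPKM untreated (0.51 ± 0.26, adjusted p = 0.263). The proteases that trim LC3 and GABARAP gave -0.15 for Atg4b (adjusted p = 0.413), 0.11 for Atg4c (0.689) and -0.22 for Atg4d (0.187). Atg4d had 14.5, 15.7 and 15.7 FPKM with uric acid, against 17.6, 16.2 and 19.5 FPKM untreated, so its groups did not overlap although the threshold was missed.

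Within the LC3 and GABARAP family 1 of 5 genes passed the test. The summed level of the 5 genes was 571 ± 20.7 FPKM with uric acid and 509 ± 29.1 FPKM untreated. Gabarapl1 made up 21.6, 22.3 and 20.6% of that sum with uric acid, against 14.3, 14.2 and 14.6% untreated. Gabarap, the most abundant of the 5, made up 59.1 ± 0.773% with uric acid and 65.5 ± 0.129% untreated, while its own level was 337 ± 8.08 FPKM with uric acid and 334 ± 19.5 FPKM untreated (log2 fold change 0.01, adjusted p = 0.922). The shares of the 5 genes sum to the whole, so they are not independent of each other. Gabarapl2, also called GATE-16, averaged 50.3 ± 3.21 FPKM with uric acid and 46.2 ± 2.54 FPKM untreated (0.12, adjusted p = 0.346). The LC3 genes had lower levels. Map1lc3a averaged 39.8 ± 1.98 FPKM with uric acid and 37.8 ± 3.03 FPKM untreated (0.08, adjusted p = 0.634). Map1lc3b, whose protein is the usual autophagosome marker, averaged 20.7 ± 0.462 FPKM with uric acid and 18.4 ± 1.42 FPKM untreated (0.16, adjusted p = 0.265). Reads of these related genes may be shared between copies, which the deposited table does not resolve.

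**Figure D3:**
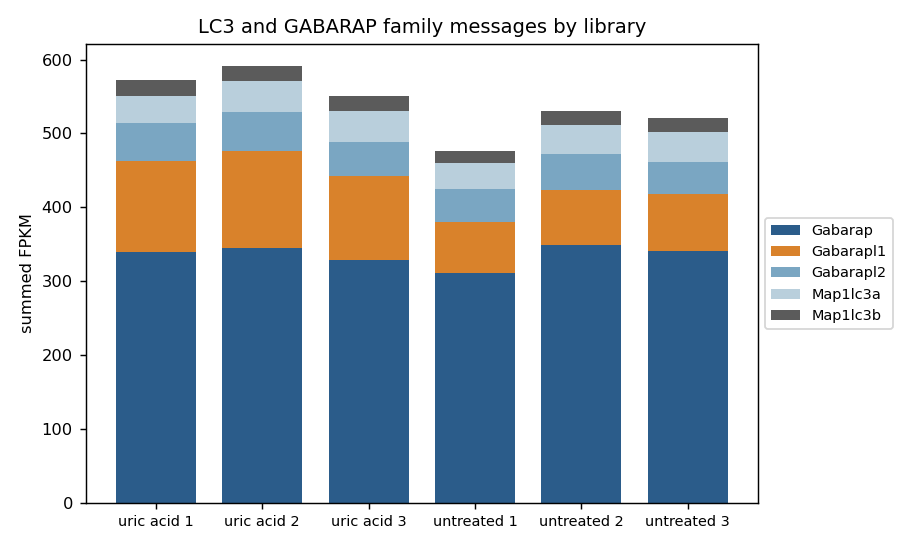
Summed FPKM (vertical axis, from 0) of the 5 LC3 and GABARAP genes in each library, uric acid libraries left and untreated libraries right, stacked by gene. The Gabarapl1 band is 20.6 to 22.3% of the bar with uric acid and 14.2 to 14.6% untreated, while the Gabarap band is about as tall in both groups.

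Among 4 cargo receptors 1 rose (25%, against 4.99% of all tested features) and none fell (against 2.99%). The other members of the step had positive values. Nbr1, a receptor for ubiquitin-marked cargo and peroxisomes, had 68.7, 64.3 and 66.4 FPKM with uric acid, against 52.7, 50.1 and 50.7 FPKM untreated. The groups stood apart by more than their ranges (log2 fold change 0.38 ± 0.06, adjusted p = 0.00698), and the call was lost without untreated library 2 (0.0608). Sqstm1, the receptor p62, which autophagy itself degrades as a protein, had 348, 425 and 336 FPKM with uric acid, against 295, 299 and 289 FPKM untreated. Its log2 fold change was 0.33 ± 0.09, which missed the threshold at an adjusted p of 0.0574, and it passed without uric acid library 3 (0.0312). Optn, the receptor optineurin, had 13.4, 13.6 and 13 FPKM with uric acid, against 11.1, 11.7 and 9.76 FPKM untreated (0.30 ± 0.08, adjusted p = 0.0505). Neither gene's groups overlapped, and both passed with DESeq2 (0.0121 for Sqstm1 and 0.0159 for Optn). DESeq2 called 968 of all features higher, against 622 in edgeR. With any other library left out Sqstm1 stood at 0.0553 to 0.184 in edgeR. Optn missed in every such fit, at 0.0562 to 0.147. Tax1bp1, at 70.2 ± 3.42 FPKM with uric acid and 67 ± 0.888 FPKM untreated, had a value of 0.07 (adjusted p = 0.533).

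Of the 2 tested MiT factors 1 rose (50%, against 4.99% of all tested features) and none fell (against 2.99%). Tfe3 had 17.1, 17.1 and 17.2 FPKM in uric acid libraries, against 11.9, 14.2 and 11.7 FPKM in untreated libraries. It rose 1.36-fold (log2 fold change 0.44 ± 0.10, adjusted p = 0.0272). That call was lost without uric acid library 1 (0.0991) and untreated libraries 1 (0.0979) and 3 (0.0832). Tfeb had 14.5, 15.1 and 13.1 FPKM with uric acid, against 17.2, 15.7 and 16 FPKM untreated, a log2 fold change of -0.20 ± 0.08 that missed the threshold (adjusted p = 0.181). The groups of Tfeb did not overlap, and lay in the opposite order to those of Tfe3. Mitf was listed at 0.86, 0.0964 and 0.172 FPKM with uric acid and at 0.888, 0.385 and 0.888 FPKM untreated, which was too low to test.

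Related genes were set against each other within each library, so that depth and scaling cancel. In 5 of 8 pairs all ratios with uric acid lay on 1 side of all ratios in untreated cells. Each of the 5 sets a member called higher over a relative that missed the threshold, and Gabarapl1 enters 2 of them. They thus restate calls already given. For single features the groups stood apart in 16.8% (uric acid above) and 14.2% (uric acid below) of all tested. An exact two-sided permutation test of 3 libraries against 3 gave these 5 pairs p = 0.1, the smallest it allows, and 0.16 after Benjamini-Hochberg adjustment over the 8, so no pair can pass. The Tfe3 to Tfeb ratio was 1.18, 1.13 and 1.31 with uric acid, against 0.691, 0.902 and 0.734 untreated: Tfe3 was the more abundant of the pair in each uric acid library and Tfeb in each untreated one. Gabarapl1 to Gabarapl2 stood at 2.45 ± 0.0407 with uric acid and 1.58 ± 0.119 untreated, and Gabarapl1 to Gabarap at 0.364 ± 0.0191 with uric acid and 0.219 ± 0.004 untreated. Ulk1 to Ulk2 stood at 2.2 ± 0.203 with uric acid and 1.6 ± 0.227 untreated, and Wipi1 to Wipi2 at 0.678 ± 0.0274 with uric acid and 0.535 ± 0.0243 untreated. The ratio of Atg2a to Atg2b, which both rose, was 1.04 ± 0.0346 with uric acid and 1.13 ± 0.0847 untreated (exact permutation p = 0.3). The ratio of Sqstm1 to Nbr1 was 5.58 ± 0.89 with uric acid and 5.76 ± 0.198 untreated (exact permutation p = 0.7), and that of Map1lc3b to Map1lc3a 0.52 ± 0.0248 with uric acid and 0.489 ± 0.0122 untreated (exact permutation p = 0.2).

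**Figure D4:**
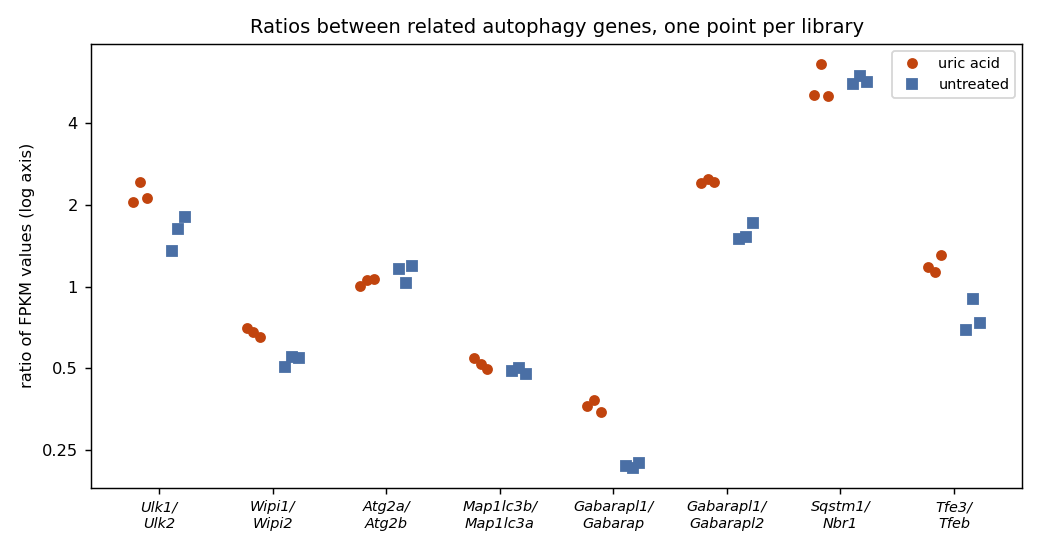
Ratio of the FPKM values of 2 related genes (vertical log axis) in each library, uric acid as circles left and untreated as squares right for each of 8 pairs. The groups stand apart for Ulk1/Ulk2, Wipi1/Wipi2, both Gabarapl1 pairs and Tfe3/Tfeb, which crosses 1 between the groups.

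Relative to the untreated mean of log2 FPKM, the 36 members averaged 0.22, 0.20 and 0.22 in uric acid libraries 1, 2 and 3 and -0.02 to 0.02 in untreated libraries. Initiation stood at 0.42, 0.26 and 0.39 in the uric acid libraries, with library 2 lowest, and nucleation at 0.20, 0.20 and 0.34, with library 3 highest. Conjugation stood at 0.15, 0.16 and 0.09, and the cargo receptors at 0.27, 0.33 and 0.21. The 2 MiT factors stood at 0.14, 0.17 and 0.07 in uric acid libraries and -0.0006, 0.06 and -0.06 in untreated libraries, so that uric acid library 3 nearly met untreated library 2.

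Other genes of the pathway, on 7 lists with 98 genes of which 87 were tested, gave 14 higher (16.1%, against 4.99% of all tested features) and 4 lower (4.6%, against 2.99%). Of the 14, 5 belong to the ATF4 branch, a stress response that feeds into autophagy. All 7 lists, the ATF4 branch among them, were chosen with earlier results of these data known. Receptors for organelles and other cargo accounted for 4 higher and 1 lower of 20 tested. That is 20% and 5%, against 4.99% and 2.99% of all tested features. Their median log2 fold change was 0.16. Tex264, a receptor for autophagy of the endoplasmic reticulum, averaged 22.3 ± 1.28 FPKM with uric acid and 15.4 ± 0.768 FPKM untreated (0.53 ± 0.09, adjusted p = 0.00831), and passed with any 1 library left out. Retreg3, which bends that organelle's membrane for the same purpose, averaged 19.2 ± 1.23 FPKM with uric acid and 13.5 ± 0.947 FPKM untreated (0.51, adjusted p = 0.00756), lost without untreated library 2 (0.056). Both belong to receptors of the endoplasmic reticulum, whereas Rtn3 (-0.01), Sec62 (0.16), Ccpg1 (0.04) and Atl3 (-0.28), which serve it too, missed the threshold. Calcoco1, a receptor for the endoplasmic reticulum and Golgi, rose by 0.52 on the log2 scale, as all values in these lists are given (adjusted p = 0.0129), lost without uric acid library 1 (0.0667) and untreated libraries 1 (0.0544) and 2 (0.0757). Ncoa4, the receptor that delivers ferritin, fell to 29.6 ± 0.923 FPKM with uric acid, against 35.1 ± 0.496 FPKM untreated (-0.25, adjusted p = 0.039). Its call held with 1 library left out in 1 case, without uric acid library 3 (0.0496). It was lost without uric acid libraries 1 (0.144) and 2 (0.0702) and untreated libraries 1 (0.0979), 2 (0.171) and 3 (0.0956). Bnip3l, a mitophagy receptor, rose by 0.34 (adjusted p = 0.0441) and was lost with any 1 library left out, at 0.0546 to 0.142.

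Partners of the MiT factors held the largest log2 fold change of these lists outside the ATF4 branch. Flcn, folliculin, which lets mTORC1 hold TFEB and TFE3 in the cytoplasm, had 36, 39.3 and 35.3 FPKM with uric acid, against 13.5, 15.3 and 15.8 FPKM untreated. All uric acid values were more than double any untreated one (log2 fold change 1.31 ± 0.08, 2.48-fold, adjusted p = 9.99e-05), and the call held with any 1 library left out. The Rag GTPases, on which folliculin acts, moved both ways. Rraga fell to 33 ± 2.14 FPKM with uric acid, against 46.7 ± 1.68 FPKM untreated (-0.50, adjusted p = 0.00463, and called with any 1 library left out). Rragc rose by 0.30 (adjusted p = 0.0309) and Rragd by 0.34 (adjusted p = 0.0482). Each of these rises was kept with 1 library left out in 1 case, without uric acid library 3 (0.0299 for Rragc and 0.0453 for Rragd). With uric acid library 1 or 2 left out Rragc stood at 0.0908 and 0.0591 and Rragd at 0.124 and 0.0928. Without untreated libraries 1, 2 and 3 Rragc stood at 0.0835, 0.117 and 0.0922, and Rragd at 0.095, 0.192 and 0.116. In all, 3 of 8 tested partners rose and 1 fell (37.5% and 12.5%, against 4.99% and 2.99% of all tested features).

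Lysosomal genes known as CLEAR targets gave 1 higher and none lower of 18, with a median of 0.06. That is 5.56% higher, close to the 4.99% of all tested features. Ctsa, the protective protein cathepsin A, rose by 0.29 (adjusted p = 0.0359), kept with 1 library left out only without uric acid library 3 (0.0456). It stood at 0.0584 and 0.0555 without uric acid libraries 1 and 2, and at 0.0939, 0.165 and 0.087 without untreated libraries 1, 2 and 3. Among 12 other core factors 1 rose (8.33%, against 4.99% of all tested features) and none fell. Wdr45, which encodes WIPI4, a binding partner of ATG2, rose by 0.55 ± 0.14 (adjusted p = 0.0445). That call held without uric acid library 3 (0.0302) and untreated library 3 (0.0361). It was lost without uric acid libraries 1 (0.129) and 2 (0.0848) and untreated libraries 1 (0.136) and 2 (0.18). Fusion of autophagosomes with lysosomes gave none higher and 1 lower of 13 (7.69%, against 2.99% of all tested features). The lower gene was the SNARE gene Ykt6 (-0.33, adjusted p = 0.0364), lost with any 1 library left out at 0.0548 to 0.179. The AMPK and mTORC1 kinase subunits gave none higher and 1 lower of 11 (9.09%, against 2.99% of all tested features). That 1 was Prkag2 (-0.40, adjusted p = 0.0464), kept with 1 library left out only without uric acid library 2 (0.0361). It stood at 0.13 and 0.0811 without uric acid libraries 1 and 3, and at 0.133, 0.139 and 0.11 without untreated libraries 1, 2 and 3. Mtor itself had a value of -0.03. A single call in lists of 11 to 18 genes says little about the list.

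**Figure D5:**
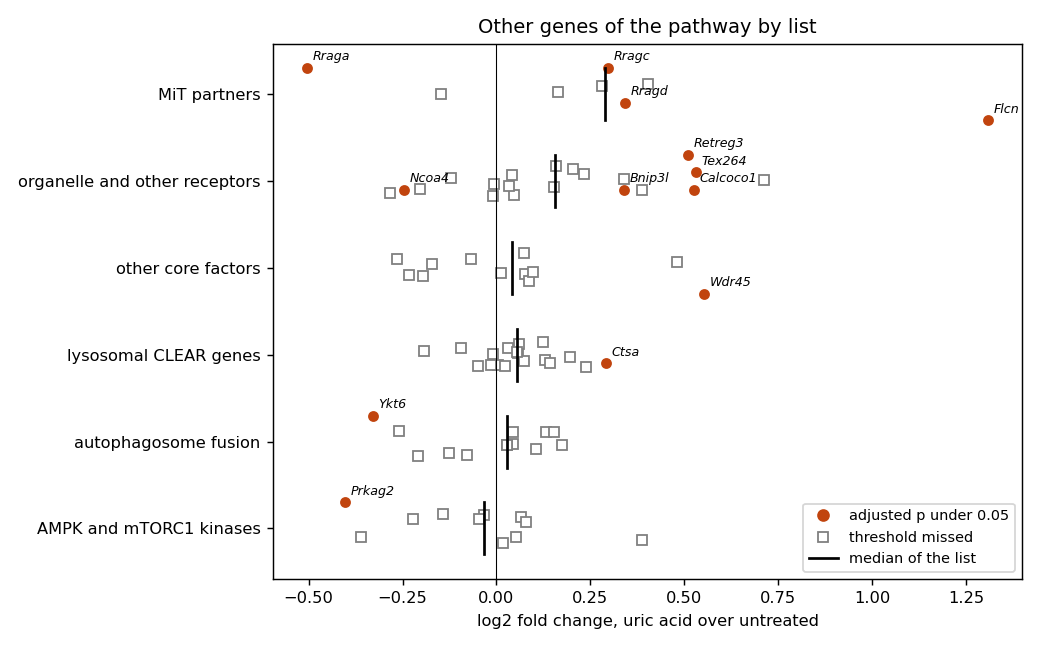
Log2 fold change, uric acid over untreated (horizontal axis), of the tested genes of 6 other lists of the pathway; filled circles with names passed an adjusted p of 0.05, open squares missed it, and vertical lines are list medians. Flcn lies at 1.31, and the medians run from -0.03 (AMPK and mTORC1 kinases) to 0.29 (MiT partners).

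All 5 genes taken from the ATF4 branch rose (100%, against 4.99% of all tested features). They were chosen with earlier results of these data known, so this share describes the list and does not test it. Atf4, a factor that in mouse cells is known to drive several autophagy genes, averaged 253 ± 28.4 FPKM with uric acid and 111 ± 4.3 FPKM untreated (log2 fold change 1.18, adjusted p = 0.00021). Trib3, a pseudokinase gene that ATF4 and CHOP switch on, averaged 83.9 ± 30.8 FPKM with uric acid and 6.37 ± 0.617 FPKM untreated (3.72, adjusted p = 0.000119). Sesn2, which encodes an inhibitor of mTORC1, had a value of 0.81 (adjusted p = 0.000519) and Ddit4, which encodes another, 1.10 (adjusted p = 0.00125). Ddit3, which encodes the factor CHOP, averaged 70.4 ± 26.1 FPKM with uric acid and 19.3 ± 0.577 FPKM untreated (1.87, adjusted p = 0.00226). The part of these factors in the changes of autophagy genes was not tested.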

How the data were processed

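Members and gene lists were chosen with earlier results of these data known. Per the labels, polyadenylated RNA was sequenced from 6 INS-1E libraries, grouped by sample title. Tools listed in the submitters' processing notes, without roles, are StringTie 1.3.4d, HISAT2 2.0.4, edgeR, DESeq2 and cutadapt 1.9. Genome build and counting strand are not given in the sources used here.

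Per the file headers, the deposited table holds FPKM values and estimated counts as the authors computed them. Checked against FPKM on 2747 small-RNA values, 99.4% of the deposited estimated counts equalled aligned bases divided by 75, rounded up, so 1 read pair adds several counts. Counts were tested in edgeR 4.0.16 (TMM scaling, quasi-likelihood F test, two-sided, no covariate; R 4.3.3), for the 12460 features whose FPKM averaged 1 or more, after a check on simulated data. Standard errors are the log2 fold change divided by the square root of F. The median standard error was 0.113, which limits precision.

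Named were all members, and of each other list at most the 4 called genes with the smallest p; Ddit3, Mafa and uncalled genes were added after their values were seen. Alternatives were other scalings, filters and pseudocounts, DESeq2 1.42.0, limma 3.58.1, counts divided by 4, the replicate number as a block, and each library left out. Protein sequences were not used here.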

Additional observations from a re-analysis of the deposited data

How the results depend on the processing

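The number of members called lower was 0 in all 17 settings, the main one included and DESeq2 and limma among them. Of all tested features 2.99% were lower in the main fit, and the number lower ran from 66 to 785 over the settings. All settings reuse the same 6 libraries, so they are not independent of each other. At an unadjusted p under 0.05 edgeR gave 2 members lower (Atg4d and Tfeb) and 15 higher. Of all 12460 tested features 3199 passed that cut in either direction. Members called higher numbered 8 to 13 in the settings that used all libraries without a block, and 4 to 10 with 1 library left out. Leaving out a library also removes a residual degree of freedom, which by itself can lower a count.

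With DESeq2, 968 of all features were higher and 785 lower, 2 genes of initiation rose and 3 cargo receptors rose. With a mean FPKM of at least 5, 3 cargo receptors rose, and with counts divided by 4, 2 rose. With a mean FPKM above 0, limma on log2(FPKM + 1) and limma on log2(FPKM + 0.1), 1 conjugation gene rose in each, and the genes of other pathway lists that fell numbered 1, 2 and 2. With 1 library left out the ranges were 165 to 707 features higher and 66 to 466 lower, 1 to 2 genes of initiation, 1 to 4 of nucleation, 1 to 2 of conjugation, 0 to 2 cargo receptors and 0 to 1 MiT factors higher, and 7 to 15 higher and 1 to 2 lower on the other lists.

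With the replicate number as a block, 223 features were higher and 99 lower, 4 members were higher (1 of nucleation, 1 of conjugation and 0 MiT factors among them), and the other lists gave 8 higher and 1 lower. Same-numbered libraries share only a number: deviations from the group means correlated at 0.068, -0.049 and -0.19 for numbers 1, 2 and 3, and not every library correlated best with its own number. In paired ratios the exact sign-flip test cannot go below 0.25.

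Sign changes among members touched only genes near 0. Atg9a went to -0.0051 with RLE scaling, -0.011 with upper quartile scaling, -0.00027 with library totals alone, -0.0035 with a mean FPKM above 0 and -0.0051 with DESeq2, and ran from -0.048 to 0.031 with 1 library left out. The ranges with 1 library left out were -0.19 to 0.097 for Pik3r4, -0.038 to 0.19 for Atg4c, -0.20 to 0.040 for Atg7, -0.038 to 0.041 for Gabarap and -0.18 to 0.0072 for the log2 value of the ratio Sqstm1/Nbr1. The cause was not tested for any of these.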

Other observations

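Stbd1, which links glycogen to autophagy, had the largest log2 fold change among uncalled genes of the pathway lists (0.71 ± 0.29, adjusted p = 0.162). It stood at 9.38, 14.7 and 5.5 FPKM in uric acid libraries 1, 2 and 3, against 5.79, 6.49 and 5.8 FPKM in untreated libraries, so that library 3 lay below the untreated range while library 2 was more than double it. It was named after its values were seen.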
